A study of Rattus norvegicus with 6 samples.

Results

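Ribosomal protein mRNA fragments are the reads that fell in exons of the genes for ribosomal proteins, in small RNA libraries of rat INS-1 cells. The members were all rows whose symbol follows the Rpl and Rps naming pattern, with Rplp0, Rplp1, Rplp2, Rpsa and Rps18l1 and without Rpl13a. The rule gave 92 of 32883 rows, with 83 different symbols, of which 55 rows are large-subunit and 37 small-subunit genes. Of these, 89 had at least 1 read and 51 reached a mean of 5 normalized reads over the 6 libraries, the level from which genes were tested.

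The cells, INS-1(832/13)::mCherry, come from a rat insulinoma, stand in for insulin-secreting β-cells, and carry a human INS-neoR and a mouse Ins2-C-mCherry transgene. All 6 lines lacked the Prader-Willi syndrome (PWS) imprinted domain on the silent maternal copy, were each 1 clone, and grew untreated in 7.5 mM glucose. Control lines 5-9, 2 and 16 kept the active paternal copy, whereas the PWS lines, named 3, 19-1 and 19-4, lacked it too. Lines 2 and 16 (transfected with an EGFP control vector) and the PWS lines were all derived from line 5-9. Line 3 has a different proximal paternal breakpoint, and lines 19-1 and 19-4 are subclones of a single edited line, so that 3 PWS libraries stand for fewer editing events. Each line gave 1 library, so p-values measure the spread between these clones.

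Ribosomal proteins assemble with ribosomal RNA into the small subunit, which reads the mRNA, and the large subunit, which joins amino acids. Their mRNAs are among the most abundant of dividing and secretory cells, and many begin with a 5′ terminal oligopyrimidine (TOP) tract, through which mTOR signalling controls their translation. The introns of many of these genes also encode small nucleolar RNAs (snoRNAs), which guide modification of ribosomal RNA. The table used here was counted with the HTSeq option that, by the study's methods, leaves out reads of overlapping or multi-copy genes as ambiguous. For most members this option changed no read, as given below. Because the libraries were size-selected for small RNAs, these reads are fragments, and they do not measure intact mRNA. Values are also not corrected for transcript length, so the order of genes below is an order of reads collected.

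A pyrimidine run at the transcription start is a sequence feature that the rule did not use. RefSeq start-site sequences (GRCr8) were found for 63 of the 83 symbols, as 64 promoters. An unbroken sense-strand run of at least 5 C or T bases that covers the first transcribed base was present in 37 of these 64 (57.8%), against 4003 of 33469 promoters in all (12.0%). The first base was C in 48.4% of the members' promoters and in 24.1% of all. The sequences of 5 well-covered members that hold such a run are shown to compare its length and position, each from 20 bases before the annotated start to 20 bases from it on, with the pyrimidine run that covers the first base in capitals.
Rps18, chr20:4933725-4933764, plus strand: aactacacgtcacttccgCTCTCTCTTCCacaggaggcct
Rplp0, chr12:46718371-46718410, minus strand: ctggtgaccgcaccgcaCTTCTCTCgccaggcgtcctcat
Rpl31, chr9:49143091-49143130, plus strand: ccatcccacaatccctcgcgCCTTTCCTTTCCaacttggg
Rps24, chr16:96497-96536, plus strand: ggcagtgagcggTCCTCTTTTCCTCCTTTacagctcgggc
Rpl3, chr7:113507971-113508010, minus strand: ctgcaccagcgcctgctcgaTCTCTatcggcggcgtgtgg
The run is 11 bases long in Rps18, 8 in Rplp0, 12 in Rpl31, 17 in Rps24 and 5 in Rpl3. In the windows of Rpl23 and Rps16 no such run covers the first base. A match is a description of these letters, not a test of translation. No such entry was used for Rps18l1.

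Recovered depth was 7220865 to 16128958 reads per library. Members took 644 to 1689 of these reads in each library, which is 0.00791% to 0.0107% of all reads. Genes of protein-coding biotype together took 0.491% to 0.696%. All 13 β-cell markers with a row had reads, but Mafa had only 4, all in line 3. Ins1 stood at 193 ± 82.9 normalized reads in control and 125 ± 51.6 in PWS lines (SD, n = 3). Of the 11 β-cell markers tested with limma, 0 had an adjusted p under 0.1, against 1.33% of all genes tested. Their log2 differences (PWS minus control) ran from -2.02 to 1.27, with 3 above 0 and 8 below. Markers of other endocrine, exocrine and fibroblast cells had no read, and of 3 blood markers only Ptprc had 1.

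The first comparison asked whether the summed ribosomal protein signal differed between genotypes. In control lines 5-9, 2 and 16 the total was 899.9, 842 and 1038 normalized reads. In PWS lines 3, 19-1 and 19-4 it was 1003, 1082 and 1016. Normalized reads are gene counts divided by a size factor for each library. Control line 16 lay above PWS lines 3 and 19-4, so the groups overlapped. The control mean was 927 ± 101 and the PWS mean 1034 ± 42.0 (SD, n = 3), or 1.12 times as much, and the difference of 107 was about the size of the control SD. Large-subunit genes summed to 602 ± 62.2 in control and 636 ± 35.1 in PWS lines, and small-subunit genes to 325 ± 51.3 and 398 ± 52.2 (SD, n = 3). No p-value was computed for these sums.

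As a share of all reads, the members took 0.00881% ± 0.00102 in control and 0.0105% ± 0.000183 in PWS lines (SD, n = 3), and on this scale every PWS line lay above every control line. Summed over all genes, normalized reads were 10538582 ± 800218 in control and 9862524 ± 542961 in PWS lines (SD, n = 3). The part of this sum, by which the share divides, was not tested. The share of all protein-coding fragments was 0.617% ± 0.0745 in PWS and 0.543% ± 0.0472 in control lines (SD, n = 3), with overlap, and its part in the members' share was not tested. Within protein-coding reads the members took 1.62% ± 0.148 in control and 1.71% ± 0.174 in PWS lines (SD, n = 3), and these groups overlapped.

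**Figure D1:**
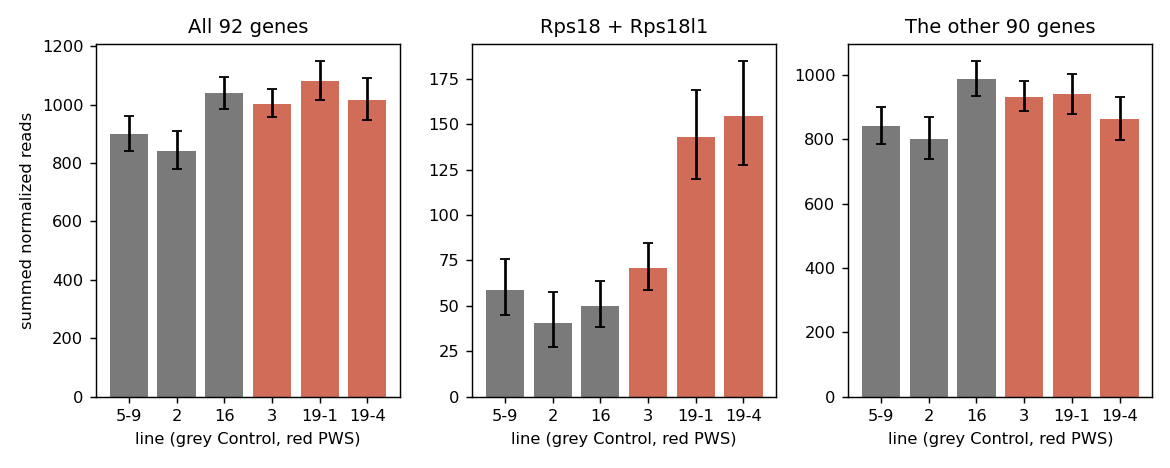
Summed normalized reads per line for all 92 member genes, for Rps18 with Rps18l1, and for the other 90 genes, with grey bars for control and red bars for PWS lines. Error bars are exact 95% Poisson intervals and cover counting error only. The pair stands at 40.5 to 58.8 in control and 70.7 to 154 in PWS lines, and the other 90 genes overlap between groups.

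A few genes held much of the signal. The 10 genes with most reads made up 50.4% of it, and Rpl3 with Rplp0 alone 29.6%. By mean over the 6 lines, 2 members were above 100 normalized reads, 29 between 10 and 100, 48 between 1 and 10, and 13 below 1. Rpl10l, Rps4y2 and Rpl39l, near-copies of other ribosomal protein genes, had no read in any library.

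Rpl3 (ENSRNOG00000016896), a large-subunit protein close to the peptidyl transferase centre, was the member with most reads. Control lines 5-9, 2 and 16 had 159, 167 and 156 normalized reads, and PWS lines 3, 19-1 and 19-4 had 179, 167 and 156. The 6 lines were close together, and the log2 difference was 0.05 ± 0.28 (SE; PWS minus control on log2(normalized reads + 1), limma adjusted p = 0.982). Rplp0, the base of the ribosomal stalk that recruits elongation factors, stood at 113, 95.5 and 128 in the control lines and 113, 153 and 152 in the PWS lines. Line 3 was within the control range and both subclones of line 19 were above it, with a log2 difference of 0.31 ± 0.30 (SE, limma adjusted p = 0.884).

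Of the other stalk genes, Rplp1 had 12.1 ± 9.08 normalized reads in control and 12.1 ± 3.65 in PWS lines (SD, n = 3). Rplp2 had 4.01 ± 2.78 and 1.49 ± 1.30 (SD, n = 3) and was too low to be tested. Rpl5 and Rpl11 carry 5S ribosomal RNA into the large subunit and, when free, bind Mdm2. Rpl5 had 9.50 ± 3.11 normalized reads in control and 12.6 ± 2.07 in PWS lines, and Rpl11 had 11.3 ± 3.85 and 13.7 ± 5.59 (SD, n = 3). Rpsa, a small-subunit protein also known as the laminin receptor, had 11.8 ± 3.85 and 14.5 ± 2.54 (SD, n = 3). The groups overlapped for each of these genes.

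**Figure D2:**
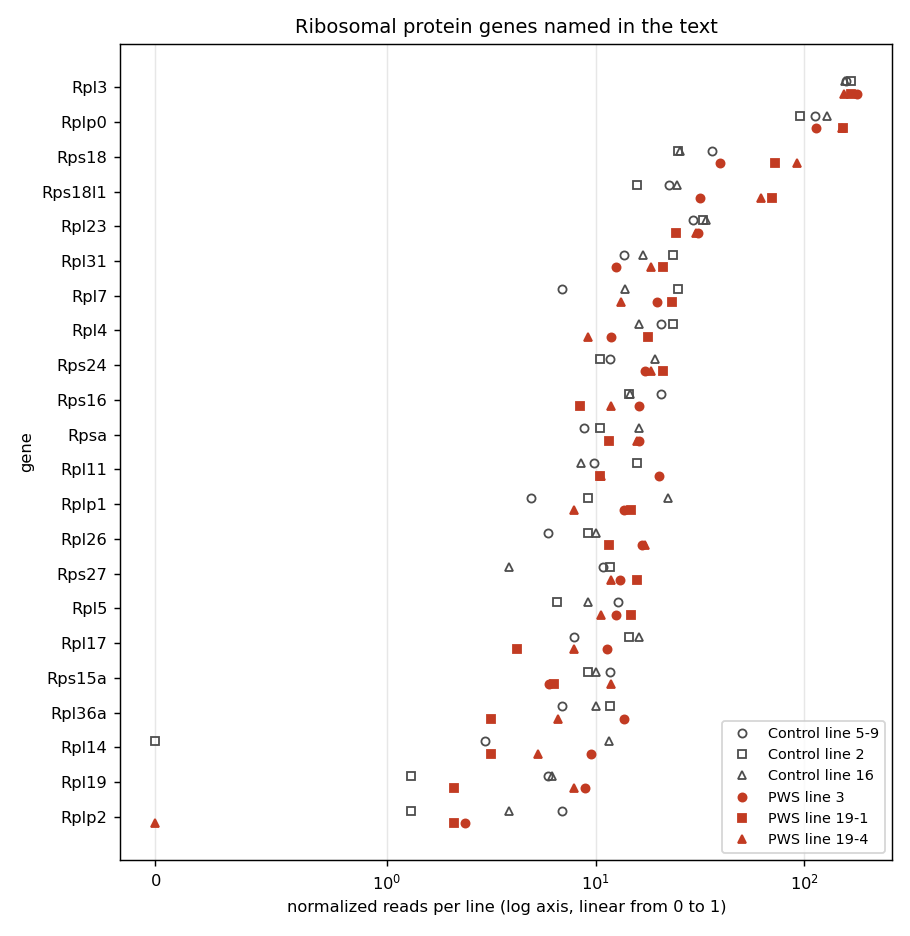
Normalized reads in each line (log axis, linear from 0 to 1) of 22 member genes named in the text, in order of their mean, with open grey symbols for control and filled red symbols for PWS lines. Rpl3 lies between 156 and 179 in the 6 lines, whereas Rps18 and Rps18l1 separate the genotypes and have their highest values in the subclones 19-1 and 19-4.

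Rps18 (ENSRNOG00000028505), a protein of the head of the small subunit, stood apart. It had 36.3, 24.8 and 25.4 normalized reads in control lines 5-9, 2 and 16, from 37, 19 and 33 reads. In PWS lines 3, 19-1 and 19-4 it had 39.2, 72.4 and 92.3, from 66, 69 and 70 reads. All PWS lines were above all control lines, but line 3 was only just above line 5-9, and the subclones 19-1 and 19-4 were far above both.

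Rps18l1 (ENSRNOG00000033152), by its symbol a near-copy of Rps18, had the same order of groups. Its values were 22.5, 15.7 and 24.6 in the control lines and 31.5, 70.3 and 62.0 in the PWS lines, again without overlap and again with line 3 nearest to the controls. The ratio of the PWS to the control mean was 2.36 for Rps18 and 2.61 for Rps18l1. The log2 difference was 1.15 ± 0.37 for Rps18 and 1.29 ± 0.38 for Rps18l1 (SE). Neither passed the threshold over all genes tested, with limma adjusted p of 0.466 and 0.253.

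Summed, the pair had 49.8 ± 9.14 normalized reads in control and 123 ± 45.3 in PWS lines (SD, n = 3). It made up 5.39% ± 0.993 of the members' total in control and 11.8% ± 4.24 in PWS lines (SD, n = 3). Rps18l1 took 38.3% to 49.2% of the pair's reads in control and 40.2% to 49.3% in PWS lines. The 95% Wilson intervals of these shares, which cover counting error only, overlapped among all 6 lines. The difference in this share between genotypes was not tested. RefSeq lists 15 symbols that start with Rps18, and the deposited table holds 2 rows with such symbols. Both rows had the same reads in the table that includes ambiguous reads, and the division of reads between such near-copies is taken as uncertain.

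The Rps18 and Rps18l1 values depended on single lines. With lines 19-1 and 19-4 averaged as 1 sample, the log2 differences were 0.98 and 1.11, with limma adjusted p of 0.992 and 0.842. Without line 3, limma gave 1.49 and 1.63, with adjusted p of 0.0997 and 0.0581, and called both, where it called 0.0478% of all genes higher in PWS lines and 1.36% in either direction. The PWS group of that fit was only the subclones 19-1 and 19-4, so both calls rest on a single edited line.

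Over the whole list, limma called 0 of 51 tested members at an adjusted p under 0.1. Over all 4141 genes tested it called 1.33%, each with lower PWS values, and 0% with higher ones. Of the 2927 tested genes of protein-coding biotype it called 1, lower in PWS lines. At an unadjusted p under 0.05 in limma, 85 of these were higher and 55 lower. The study placed most of its differentially expressed small RNAs in the deleted domain. Both Rps18 and Rps18l1, and no other member, had an unadjusted p under 0.05, which is 2 of 51 (3.92%) against 6.06% of all genes (2.32% higher and 3.74% lower in PWS lines). The same 2 were the tested members with a log2 difference of at least 1 in size, against 8.07% of all genes. DESeq2 also called 0 members, where it called 0.767% of all genes and 0% higher in PWS lines, with 2 members at an unadjusted p under 0.05. edgeR called 1, Rps18l1, with an adjusted p of 0.0861, where it called 1.4% of all genes in either direction and 0.0241% higher in PWS lines. limma with no filter on low values called 1 as well, again Rps18l1 (adjusted p = 0.0836), against 0.0177% of all genes higher and 0.39% in either direction. In 4 of 51 tested members (Rps18, Rps18l1, Rpl26 and Rps27) all PWS lines were above all control lines, or 7.84%, against 4.93% of all genes. In 0 members all PWS lines were below all control lines, against 6.38% of all genes.

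The median log2 difference was 0.07 over tested members, with 31 above 0 and 20 below, and 0.00 over all genes tested (50.3% above 0). Over the 2927 tested genes of protein-coding biotype it was 0.09, with 1654 above 0 and 1273 below. Of the 51, 42 were smaller than 0.5 in size. The median SE was 0.43 on the log2 scale, so that differences of this size could not be told from the spread between lines for most members.

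**Figure D3:**
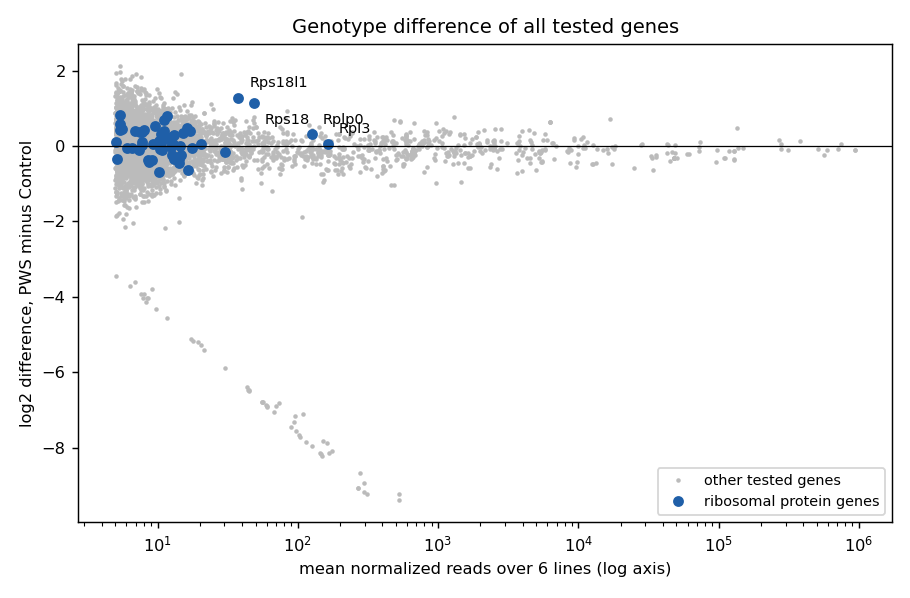
Log2 difference (PWS minus control) against mean normalized reads (log axis) of all 4141 genes tested, with the 51 member genes in blue. Most members lie among the other genes of their level, Rps18 (1.15) and Rps18l1 (1.29) are the only members of at least 1 in size, and the diagonal of points at the lower edge are genes with few or no reads in PWS lines.

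Among small-subunit genes, no other was past 1 in log2 difference. Rps24 had 13.8 ± 4.73 normalized reads in control and 18.9 ± 1.92 in PWS lines (SD, n = 3). Rps27, a zinc-finger protein, stood at 10.8, 11.8 and 3.85 in control lines 5-9, 2 and 16 and at 13.1, 15.7 and 11.9 in PWS lines 3, 19-1 and 19-4. The groups of Rps27 were separated by less than 1 read's worth, and its log2 difference was 0.68 ± 0.43 (SE, limma adjusted p = 0.856). Without control line 16 it was 0.24.

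Small-subunit genes together made up 34.9% ± 3.17 of the members' total in control and 38.4% ± 4.11 in PWS lines (SD, n = 3). Without Rps18 and Rps18l1 the share was 31.3% ± 2.78 in control and 30.2% ± 1.34 in PWS lines (SD, n = 3), so the direction turned. The total of the other 90 members was 877 ± 98.2 in control and 911 ± 42.6 in PWS lines (SD, n = 3).

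Among large-subunit genes, several encode proteins along the tunnel through which the nascent chain leaves. Rpl4, which reaches into the tunnel, stood at 20.6, 23.5 and 16.2 in control lines 5-9, 2 and 16 and at 11.9, 17.8 and 9.23 in PWS lines 3, 19-1 and 19-4. Rpl17, at the tunnel exit, had 12.8 ± 4.38 in control and 7.80 ± 3.54 in PWS lines (SD, n = 3). These were the members with the lowest log2 differences, -0.62 ± 0.38 and -0.68 ± 0.44 (SE), with limma adjusted p of 0.849 and 0.856, and their groups overlapped. Without line 19-1 the value of Rpl17 was -0.34. Rpl26, also near the tunnel exit, had 6, 7 and 13 reads in the control lines and 28, 11 and 13 in the PWS lines, or 8.35 ± 2.18 and 15.1 ± 3.10 normalized reads (SD, n = 3). The normalized values of the groups did not overlap, with a log2 difference of 0.79 ± 0.39 (SE, limma adjusted p = 0.826).

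Rpl31, on the rim of the tunnel exit, had 18.1 ± 5.00 normalized reads in control and 17.3 ± 4.37 in PWS lines (SD, n = 3). Rpl23, at the interface of the subunits, ranged from 29.4 to 33.9 in control and from 24.1 to 30.9 in PWS lines, and Rpl7 had 15.2 ± 9.07 and 18.6 ± 5.02 (SD, n = 3). Rpl14 had a fitted log2 difference of 0.82 ± 0.90 (SE), which was 0.27 with DESeq2 and 0.24 with edgeR and turned to -0.12 without control line 2. It stood at 2.94, 0 and 11.5 in the control lines and 9.50, 3.15 and 5.27 in the PWS lines, and the groups overlapped. The remaining members named by their low values, Rps15a and Rpl36a, had log2 differences of -0.38 ± 0.41 and -0.42 ± 0.48 (SE). Without line 3 the value of Rps15a was -0.22, and without line 19-1 that of Rpl36a turned to 0.03.

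**Figure D4:**
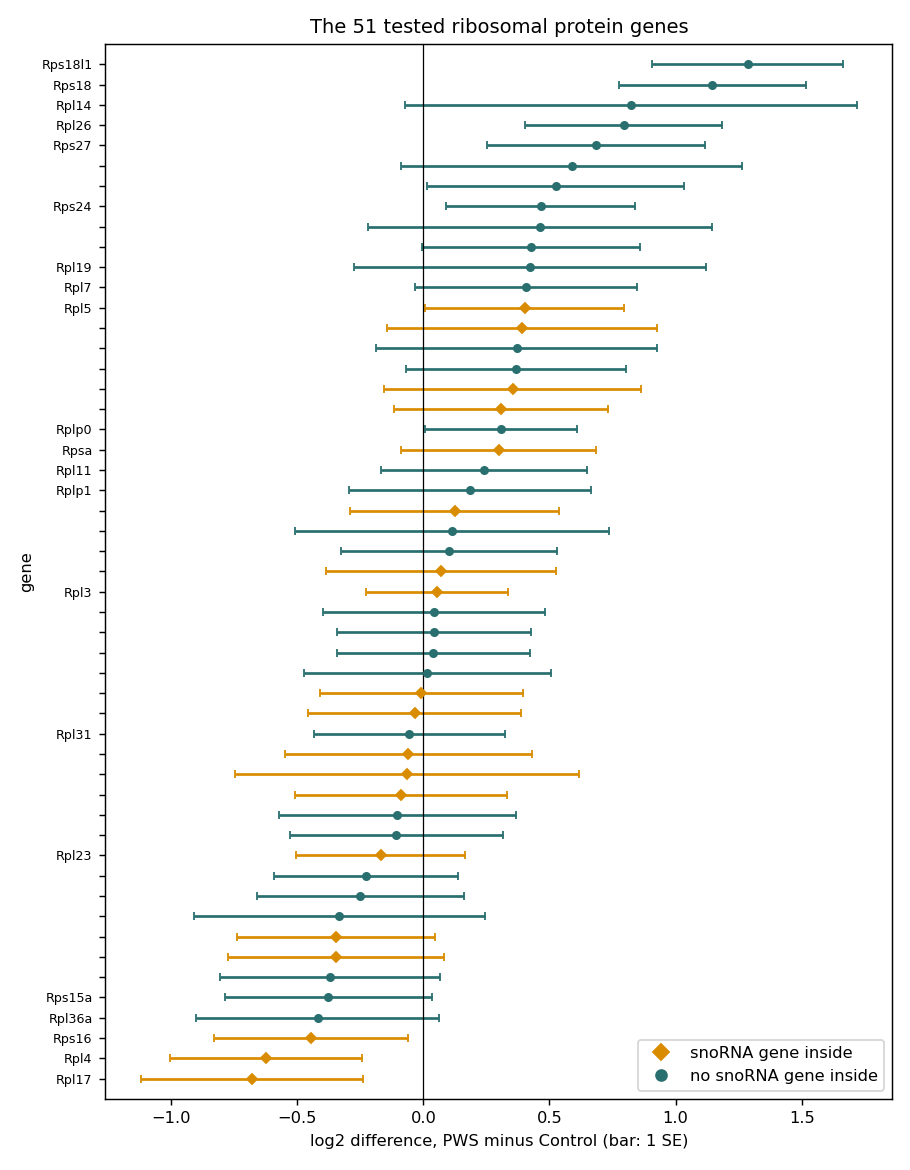
Log2 difference (PWS minus control) with 1 SE of each of the 51 tested member genes, in order and labelled where the text names them, with orange diamonds for genes that hold an annotated snoRNA gene in RefSeq and green circles for the rest. Rps18l1 and Rps18 are at the top, and Rpl4 and Rpl17 at the bottom.

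The genes that host snoRNAs were described separately. In RefSeq, 30 of the 83 symbols have 56 snoRNA genes inside them, without regard to strand. Of the 19 tested rows of such genes, 8 were above 0 and 11 below, with a median log2 difference of -0.03. Of the 32 tested rows with no snoRNA inside, 23 were above 0 and 9 below, with a median of 0.21. Rps18 and Rps18l1 are among the latter. The host total was 431 ± 33.2 normalized reads in control and 418 ± 48.9 in PWS lines, and that of the other members 495 ± 67.4 and 616 ± 49.4 (SD, n = 3). The difference between hosts and other members was not tested.

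Reads of hosted snoRNAs did not appear at the same level in their hosts' exons. Rpl37 had a mean of 1.55 normalized reads over the 6 lines and Snord72 9358 ± 3223, and Rpl3 had 164 and Snord83b 2792 ± 895 (SD over 6 lines). Neither of these snoRNAs was called between genotypes, with limma adjusted p of 0.903 and 0.849.

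The counting option mattered for a single well-read member. For 90 of the 92 members the reads were the same in the table in which ambiguous reads were added to each of their genes. Rps16, whose protein reaches into the decoding region, gained 219 reads there, from 95 to 314. The same number of reads in each library was gained by AABR07002788.1, which had 0 reads otherwise. RefSeq lists a snoRNA gene inside Rps16. Without the shared reads Rps16 had 16.5 ± 3.51 normalized reads in control and 12.1 ± 3.83 in PWS lines, and with them 45.8 ± 10.4 and 47.0 ± 8.76 (SD, n = 3). Its log2 difference moved from -0.44 to 0.05, with limma adjusted p of 0.884 and 0.986. Rpl19, a large-subunit protein, gained 8 reads, and its log2 difference moved from 0.42 to 0.53. Without control line 2 its difference turned to -0.11.

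Other genes of the pathway were described from lists. Among ribosomal proteins and associated factors outside the naming rule, 0 of 3 tested rows were called. Rack1, a scaffold on the small subunit, had 34.7 ± 10.8 normalized reads in control and 34.8 ± 9.79 in PWS lines on its main row (SD, n = 3). Rpl13a, which the rule set aside, had 12.2 ± 7.18 and 15.7 ± 7.72 (SD, n = 3). Of 29 tested translation factors, 0 were called and the median log2 difference was -0.07. Of 21 tested ribosome biogenesis factors 0 were called, with a median of 0.16 and a range from -0.95 to 1.32. Of 16 tested mitochondrial ribosomal protein genes 0 were called, with a median of -0.07. Of 13 tested ER chaperones 0 were called, with a median of -0.41 and 11 below 0. This list was taken from the study, which reported reduced ER chaperone mRNAs in these lines from the same RNA isolation. The direction of the ER chaperones here is therefore not independent of that report. At an unadjusted p under 0.05 in limma were 0 of the translation factors, 0 of the biogenesis factors, 1 mitochondrial ribosomal protein gene (higher in PWS lines) and 3 ER chaperones (lower), against 2.32% of all genes tested higher and 3.74% lower.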

How the data were processed

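Small RNA libraries of 3 control and 3 PWS lines were analysed from 2 deposited tables. Per the labels and the study's methods, the authors removed duplicates with UMI-tools 1.0.0, trimmed with Cutadapt 1.18, aligned with Bowtie2 2.3.4.2 to a custom rat annotation (Rnor_6.0) and counted exon reads per gene with HTSeq 0.11.2. The deposited values are a signal, gene counts that the authors divided by a DESeq2 size factor per library. All values were whole multiples of 1 read (100%, tolerance 0.001), so reads were recovered. Columns of the authors' mean, fold change and p-values were not used. The main table leaves out reads of overlapping or multi-copy genes as ambiguous, by the study's methods. For 90 of the 92 members, Rps18 and Rps18l1 among them, both tables held the same reads, so the option left out none of theirs. Their reads are therefore not shown to be unique to 1 copy.

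Genes with a mean of at least 5 were tested by limma-trend (limma 3.58.1, R 4.3.3) on log2(normalized reads + 1), with genotype as sole term, Benjamini-Hochberg adjustment over all genes tested and a threshold of 0.1. Alternatives included edgeR 4.0.16 and DESeq2 1.42.0, checked on simulated data. Named genes were the 10 with most reads, any called, the 5 highest and 5 lowest log2 differences, 8 genes fixed by role, and those whose reads differed between tables. Some genes these rules pick are not reported here. Members and lists were chosen with earlier results of these data known. RefSeq (GRCr8) gave names, neighbours and start-site sequences, and 81 of 83 symbols matched. Intervals cover counting error only.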

Additional observations from a re-analysis of the deposited data

How the results depend on the processing

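The count of called members was 0 in 17 of 20 alternatives. It was 1 with edgeR and 1 with no filter, in both cases Rps18l1, with adjusted p of 0.0861 and 0.0836. Leaving out a line in turn gave 0 to 2, and the 2 (Rps18 and Rps18l1) came without PWS line 3. Rps18 and Rps18l1 kept their direction in all 19 alternatives, with log2 differences of 0.89 to 1.49 and 1.07 to 1.63 and adjusted p of 0.0997 to 0.992 and 0.0581 to 0.898. The log2 ratio of the members' total was 0.16 and stayed above 0 in each alternative, with 0.09 to 0.25 on leaving out each line. It was 0.25 as a share of all reads and 0.06 without Rps18 and Rps18l1, an alternative chosen after seeing the data. Without this pair the difference in small-subunit share was -1.06 percentage points in place of 3.45. Of 22 named members tested, 9 changed sign in some alternative, and none of these was called in any. With the replicate number as a block 0 members were called, and the block changed no call of a member. Correlations of deviations between lines of the same number were 0.422, 0.214 and -0.0638. They were not compared with those between lines of different numbers, so they cannot decide whether the numbers pair the lines. Few reads per member limit these comparisons: 41 of the 92 were too low to be tested.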
